A study of Mus musculus with 12 samples.

Results

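The BCL2 family is the set of proteins that decides whether the outer membrane of the mitochondrion is breached during apoptosis. The genes described here are 10 of its members or close relatives, chosen by symbol: the pro-survival genes Bcl2, Bcl2l1 and Mcl1, the effectors Bax and Bak1, the BH3-only genes Bid, Bad, Bbc3 and Bcl2l11, and Bnip3. Of these 10 genes, 9 had a probe listed under their symbol, with 26 probes in all among the 45281 probes of the array. Bax is named only. To be kept, a probe needed detection p-values below 0.01 on the 3 arrays of some group, and 7 of the 26 probes passed. These 7 probes belonged to 6 members (Mcl1, Bcl2l1, Bid, Bad, Bbc3 and Bcl2l11), which were tested among 8875 genes. The other 3 members with a probe, Bcl2, Bak1 and Bnip3, were not tested.

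Pancreatic islets, the hormone-secreting cell clusters of the pancreas, came from male C57Bl/6Hsd mice aged 10 months of 2 genotypes, the wild type (WT) and a knockout of SHP, the nuclear receptor encoded by Nr0b2 (SHPKO). The mice ate chow or a western diet for 6 months from the age of 4 months, and the islets were released with collagenase perfused into the pancreas. RNA of 5 to 9 mice per group was pooled and run on Illumina beadchips in triplicate, which gave 3 arrays for each of the 4 pairings of genotype with diet. The series text does not say whether the 3 arrays of a group share 1 pool, so every p-value measures the spread between arrays, which may be technical, and not the spread between mice.

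Apoptosis through mitochondria turns on binding between proteins of this family. BAX and BAK form pores in the outer mitochondrial membrane and release cytochrome c, the pro-survival proteins BCL2, BCL-XL and MCL1 hold them in check, and BH3-only proteins bind the pro-survival proteins or activate the effectors directly. In beta cells the family is known as a point where endoplasmic reticulum stress, cytokines and lipid overload meet the death machinery.

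Arrays had a median raw intensity of 80 to 88, and each detected 13821 to 16101 probes. Nr0b2 had 1 probe, at log2 levels of 4.35 to 4.55 and not detected on any array of either genotype, so these arrays give no check of the knockout. All 7 beta cell markers, among them Ins2, Iapp and Slc2a2, were tested, and none was undetected in any group. Of these, 1 of 7 fell for western diet against chow in SHPKO, and 0 rose or fell in WT. The acinar markers, the enzymes of the exocrine pancreas (Cel, Cpa1 and Cela3b first among 9 tested), differed with genotype. Their summed linear level was 124241 to 127866 in WT on chow and 96999 to 103640 in WT on western diet, against 23538 to 25607 and 22023 to 24304 in the corresponding SHPKO groups, and 9 of 9 fell on each diet. Lymphocyte markers (Cd79b, Cd22 and Fcmr first among 5 tested) summed to 733 to 780 in SHPKO on western diet and to 122 to 152 in the other groups. These 5 passed the filter through SHPKO on western diet alone, and all 7 of the list on the array were undetected in both chow groups, so no count of calls is given for them. Erythroid markers summed to 9478 to 11400 on chow and to 2151 to 4124 on western diet. Of the 4 tested, 1 was detected on 5 arrays, all on chow. It passed the filter through chow alone, so a fall of this marker with diet carries no weight. Whether these shifts had a part in the values below was not tested. In RNA of whole islets, fewer cells of a type and less RNA per cell cannot be told apart.

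**Figure D1:**
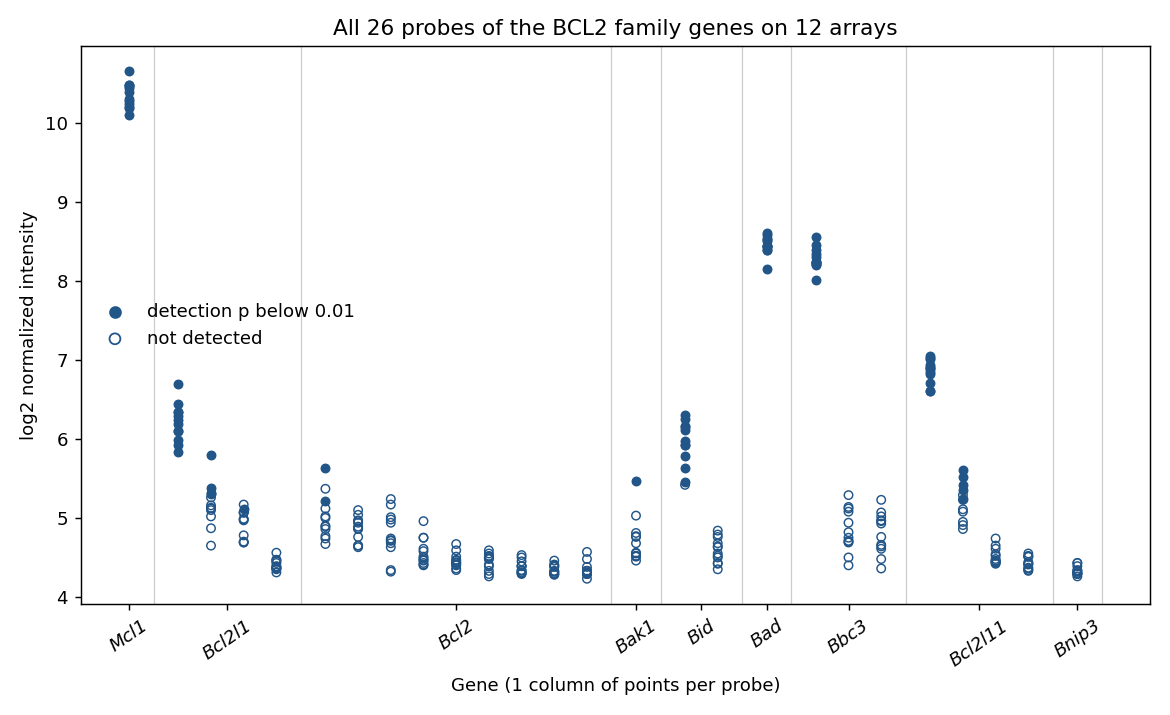
Each column of points is 1 of the 26 probes, with its log2 normalized intensity on the vertical axis and 1 point per array for 12 arrays. Filled points had a detection p-value below 0.01: Mcl1 (10.11 to 10.66), Bad, Bbc3 and the brightest probe each of Bcl2l1 and Bcl2l11 were detected on all 12 arrays, while 15 probes were detected on none.

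The tested members showed small differences throughout. Called here means an adjusted p below 0.05 in limma, with Benjamini-Hochberg adjustment over all 8875 genes, together with a change of at least 1.5-fold. For SHPKO against WT on chow, 0 of 6 members were called, where 2.11% of all genes were, and 0 had an unadjusted p below 0.05, against 13.9%. On western diet the same genotype comparison called 0 of 6 members against 3.17% of all genes, and again 0 had an unadjusted p below 0.05, against 15.9%. For western diet against chow in WT, 0 of 6 were called against 2.73%, and 1 (Mcl1) had an unadjusted p below 0.05, against 20.6%. In SHPKO, 0 of 6 were called for diet against 3.29%, and 2 (Mcl1 and Bcl2l1) had an unadjusted p below 0.05, against 19.7%. The interaction, in which the genotype difference on chow is subtracted from that on western diet, called 0 of 6 against 2.07%, with 0 at an unadjusted p below 0.05, against 12.7%. The comparisons share arrays in pairs, so their values stand side by side and are not independent of each other.

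**Figure D2:**
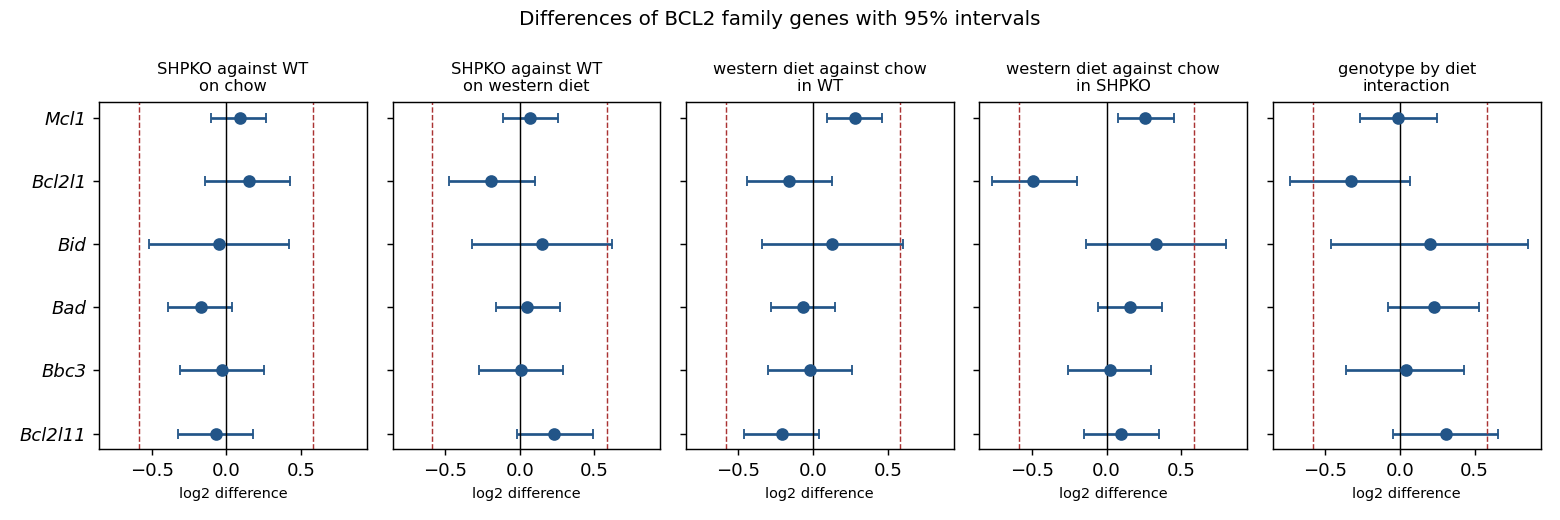
Log2 differences of the 6 tested members (points) with 95% intervals (bars) in the 5 comparisons, with dashed lines at a 1.5-fold change. No point lies beyond the dashed lines, and only 3 intervals leave out 0: those of Mcl1 for diet (0.09 to 0.46 in WT, 0.08 to 0.45 in SHPKO) and of Bcl2l1 for diet in SHPKO (-0.77 to -0.20).

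The intervals show how large a change these arrays still allow. They are on a scale with an offset of 16 added to every intensity, which understates the change of dim genes such as Bid and Bcl2l1. For these the true bounds are wider. On this scale, the 95% intervals of 6 of 6 members for genotype on chow lay within a 1.5-fold change in either direction. The count was 5 of 6 for genotype on western diet, 5 of 6 for diet in WT, 4 of 6 for diet in SHPKO and 3 of 6 for the interaction. The median log2 difference of the 6 members was -0.04 for genotype on chow and 0.06 on western diet, where the median of all genes tested was 0.01 and 0.02. It was -0.04 for diet in WT and 0.13 in SHPKO, where all genes had 0.02 in both, and 0.12 for the interaction, where all genes had 0.

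Mcl1 encodes a short-lived pro-survival protein that binds BAK and several BH3-only proteins. Its 1 probe (ILMN_1216732) was detected on all 12 arrays. The log2 levels were 10.11, 10.19 and 10.24 in WT on chow and 10.21, 10.29 and 10.31 in SHPKO on chow. They were 10.49, 10.48 and 10.40 in WT on western diet and 10.49, 10.45 and 10.66 in SHPKO on western diet. The diet groups did not overlap in either genotype, while the genotypes overlapped on both diets. Mcl1 was 0.28 ± 0.08 (SE) higher on western diet in WT (limma adjusted p 0.082) and 0.26 ± 0.08 higher in SHPKO (adjusted p 0.099). Neither difference passed the test. Groups that did not overlap were found for 1 of 6 members in WT and for 2 of 6 in SHPKO, where 25.1% and 27.2% of all genes had such groups. For genotype on western diet the count was 0 of 6, against 24.5%. The genotype difference of Mcl1 was 0.09 ± 0.08 on chow and 0.07 ± 0.08 on western diet, and the interaction was -0.01 ± 0.12 with an interval of -0.27 to 0.25.

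Averaged over both genotypes, a contrast added after the data had been seen, Mcl1 was 0.27 ± 0.06 higher on western diet, a ratio of 1.21 with a 95% interval of 1.1 to 1.32. Its limma adjusted p was 0.011, and the change stayed under the minimum fold, so it was not called. In this averaged contrast 2 of 6 members, Mcl1 and Bcl2l1, had an adjusted p below 0.05 at any fold, against 12.4% of all genes, and 0 of 6 were called, against 2.59%. The same 2 members had an unadjusted p below 0.05, against 27.2% of all genes. Genotype averaged over both diets called 0 of 6 members against 1.8% of all genes, with 0 at an unadjusted p below 0.05, against 18.4%. Markers of several cell types moved with the same averaged diet contrast. Among beta cell markers 1 of 7 fell, and among duct markers 1 of 3 fell. Of the erythroid markers 4 of 4 tested fell, with a median log2 difference of -1.81, and 1 of them had passed the filter through chow alone. Of the acinar markers 4 of 9 fell, 1 of 6 macrophage markers rose, and Ppy, the marker of PP cells, rose with 0.65. The summed lymphocyte level was high in SHPKO on western diet alone. The part of these cells in the Mcl1 difference was not tested.

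**Figure D3:**
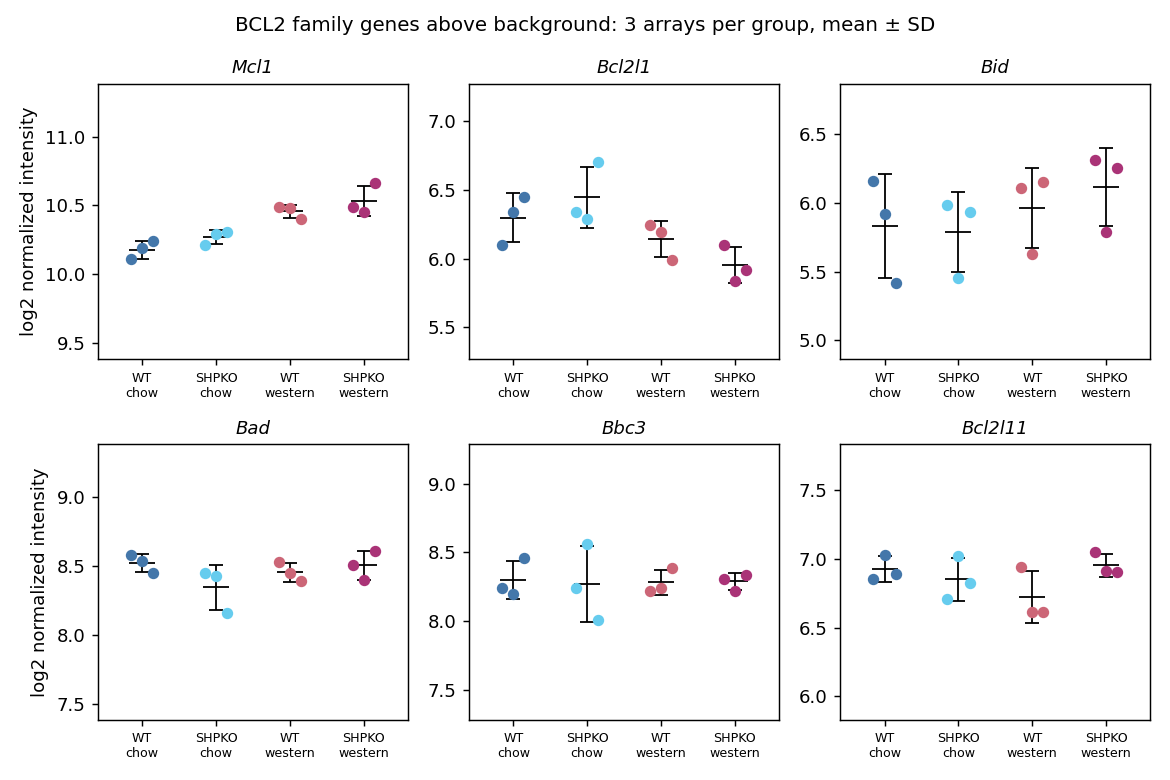
Log2 normalized intensity of the 6 tested members by group, with 1 point per array, the mean as a horizontal bar and the SD over 3 arrays as the error bar. Every panel spans the same number of log2 units: Mcl1 has a higher mean on western diet than on chow in both genotypes, Bcl2l1 is lowest in SHPKO on western diet, and Bid has the widest spread within groups.

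The promoter of Mcl1 is printed because Mcl1 was the member with the lowest adjusted p in the averaged diet contrast. It is the RefSeq sequence of GRCm38.p6, chr3:95658471-95658720, on the + strand, the 250 bases that end at the transcript start, with a GC content of 64.4%. Capitals mark CCGGAA, a sequence that ETS factors bind, searched on both strands. Stretches that share only its GGAA letters are not marked.
Mcl1: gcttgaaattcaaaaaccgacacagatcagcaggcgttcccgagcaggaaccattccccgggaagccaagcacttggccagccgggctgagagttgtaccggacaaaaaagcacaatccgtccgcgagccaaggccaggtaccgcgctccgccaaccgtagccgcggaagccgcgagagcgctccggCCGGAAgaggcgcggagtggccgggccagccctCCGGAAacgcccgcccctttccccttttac
The motif occurred 2 times, starting 63 and 30 bases before the transcript start, and 3952 of 32851 mouse promoters of this length (12%) hold it. No measurement here bears on binding at these letters.

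Bcl2l1 encodes BCL-XL, a pro-survival protein, and by alternative splicing also a shorter pro-death form. It had 4 probes, of which 1 (ILMN_2698430) was kept. The log2 levels were 6.10, 6.34 and 6.45 in WT on chow and 6.34, 6.29 and 6.70 in SHPKO on chow. They were 6.24, 6.19 and 5.99 in WT on western diet and 6.10, 5.84 and 5.92 in SHPKO on western diet. The 2 SHPKO groups did not overlap, while the WT groups did, and the highest single array was in SHPKO on chow. In SHPKO, the western diet difference was -0.49 ± 0.13, with a 95% interval of -0.77 to -0.20 and a limma adjusted p of 0.049, against 5.78% of all genes with an adjusted p below 0.05 at any fold. The change was under the minimum fold on the offset scale, which understates the change of a gene as dim as Bcl2l1. Its limma adjusted p was below 0.05 in only 3 of 20 other settings, over a range of 0.044 to 0.18. Without replicate 3 of SHPKO on chow, the highest array, the difference was -0.36 with an adjusted p of 0.16.

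The diet difference of Bcl2l1 in WT was -0.16 ± 0.13 (adjusted p 0.55), and the interaction of -0.33 ± 0.19 had an adjusted p of 0.52, so the diet differences of the genotypes were not shown to differ. Genotype gave 0.15 ± 0.13 on chow and -0.19 ± 0.13 on western diet. Averaged over genotypes, the diet difference was -0.32 ± 0.09 with a limma adjusted p of 0.041, and the adjusted p was below 0.05 in 8 of 19 other settings. In the diet contrast in SHPKO, 3 of 4 erythroid markers fell, with a median log2 difference of -1.48, and 4 of 9 acinar markers fell while 1 rose. Of these 4 erythroid markers, 1 had passed the filter through chow alone. Among beta cell markers 1 of 7 fell, and among duct markers 1 of 3 fell. The summed lymphocyte level was highest in SHPKO on western diet, where Bcl2l1 was lowest. The part of these cells in the Bcl2l1 values was not tested. The 3 other probes of Bcl2l1 were in or near background. ILMN_2742557 was detected on 2 arrays of each chow group and on no array of either western diet group, at log2 levels of 4.65 to 5.80 over all arrays. Its mean was 5.16 in SHPKO on chow and 5.17 in SHPKO on western diet, so it did not repeat the SHPKO difference. In WT its mean was 5.4 on chow and 4.97 on western diet. ILMN_2647885 was detected on 1 array and ILMN_1255430 on none. The means of ILMN_2647885 were 5.03 and 4.97 in SHPKO on chow and on western diet, and 5.07 and 4.69 in WT.

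Bcl2, the founding pro-survival member, was not well above background. Of its 9 probes, 8 were detected on no array. The remaining probe, ILMN_1249021, had log2 levels of 4.89, 5.00 and 5.37 in WT on chow, 4.77, 4.67 and 5.02 in SHPKO on chow, and 4.86, 4.74 and 5.12 in WT on western diet. In SHPKO on western diet it reached 4.90, 5.22 and 5.63, and 2 of these 3 arrays passed the detection threshold, the only detections of any Bcl2 probe. All 4 groups overlapped. With no filter on dim probes, its diet difference in SHPKO was 0.43 (adjusted p 0.35), and no comparison called it. The lymphocyte markers, high in the same group, are listed with the arrays above, and B and T cells are known to express Bcl2. Their part in these detections was not tested.

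Bak1, an effector that resides in the outer mitochondrial membrane, had 1 probe, detected on 1 array of WT on chow at a log2 level of 5.47. The other 11 arrays ranged from 4.46 to 5.03 without detection. Levels of this kind give only an upper bound for Bak1. With no filter on dim probes its genotype differences were -0.27 on chow and -0.18 on western diet and its diet differences -0.14 in WT and -0.05 in SHPKO, at limma adjusted p-values of 0.78 to 0.97.

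The BH3-only genes began with Bid, whose protein is cut by caspase 8 and links death receptors to mitochondria. Bid had 2 probes, of which 1 (ILMN_3161878) was kept and detected on 11 of 12 arrays. Its log2 levels were 6.16, 5.92 and 5.42 in WT on chow, 5.98, 5.45 and 5.93 in SHPKO on chow, 6.11, 5.63 and 6.15 in WT on western diet, and 6.31, 5.79 and 6.25 in SHPKO on western diet. Every group held 1 array well below the other 2, and all 4 groups overlapped. The low array was replicate 2 in every group but WT on chow, where it was replicate 3. Differences were -0.05 for genotype on chow, 0.15 for genotype on western diet, 0.13 for diet in WT and 0.33 for diet in SHPKO, each ± 0.22. These intervals were the widest of the 6 members. For diet in SHPKO the interval of -0.14 to 0.80 still allowed a change beyond 1.5-fold. So did the upper limits of 0.62 for genotype on western diet, 0.60 for diet in WT and 0.86 for the interaction.

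Bad encodes a BH3-only protein that survival kinases inactivate by phosphorylation, and in beta cells of mice it also associates with glucokinase. Its 1 probe was detected on all 12 arrays. The log2 levels were 8.58, 8.54 and 8.45 in WT on chow and 8.45, 8.43 and 8.16 in SHPKO on chow. They were 8.53, 8.45 and 8.39 in WT on western diet and 8.51, 8.40 and 8.61 in SHPKO on western diet. The chow groups met at 8.45 without crossing, the case for 17.1% of all genes, and the western diet groups overlapped. The genotype difference on chow was -0.17 ± 0.10 (limma adjusted p 0.48), and it was 0.02 under median scaling in place of quantile normalization, which moved the median of all genes from 0.01 to 0.16. Bad gave 0.05 ± 0.10 for genotype on western diet, -0.07 ± 0.10 for diet in WT and 0.16 ± 0.10 for diet in SHPKO.

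Bbc3 encodes PUMA, a p53 target that binds all the main pro-survival proteins. It had 3 probes, of which 1 (ILMN_2920736) was kept and detected on all 12 arrays. The log2 levels were 8.24, 8.20 and 8.46 in WT on chow, 8.24, 8.56 and 8.01 in SHPKO on chow, 8.22, 8.24 and 8.39 in WT on western diet, and 8.31, 8.22 and 8.34 in SHPKO on western diet. The lowest and the highest array were both in SHPKO on chow, and all groups overlapped. The 4 simple differences of Bbc3 lay between -0.03 and 0.02, each ± 0.13, and the interaction was 0.04 ± 0.18. The 2 other probes were detected on no array.

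Bcl2l11 encodes BIM, which binds all the main pro-survival proteins and is induced by FOXO factors. It had 4 probes and 2 of them were kept. The brighter, ILMN_3157568, was detected on all arrays, with log2 levels of 6.85, 7.03 and 6.89 in WT on chow, 6.71, 7.02 and 6.82 in SHPKO on chow, 6.94, 6.61 and 6.61 in WT on western diet, and 7.05, 6.91 and 6.90 in SHPKO on western diet. The lowest values were in WT on western diet, and neighbouring groups overlapped. Differences were -0.07 ± 0.12 for genotype on chow, 0.23 ± 0.12 for genotype on western diet, -0.21 ± 0.12 for diet in WT and 0.10 ± 0.12 for diet in SHPKO, with limma adjusted p-values of 0.34 to 0.84. The interaction was 0.31 ± 0.16 (adjusted p 0.48).

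The dimmer kept probe of Bcl2l11, ILMN_2590638, passed the filter through WT on chow alone, where it was detected on 3 arrays at 5.52, 5.36 and 5.61. In SHPKO on chow it had 4.95, 5.11 and 5.24, in WT on western diet 5.29, 4.91 and 5.42, and in SHPKO on western diet 5.08, 4.86 and 5.23. Each of the other groups had 1 or 0 arrays with detection. Tested on its own, the genotype difference on chow was -0.40 ± 0.14 with a limma adjusted p of 0.19, where the brighter probe had -0.07. The platform annotation ties these probes to different transcript records of the gene.

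Bnip3, a mitochondrial protein induced by hypoxia that promotes mitophagy, had 1 probe. Its log2 levels ran from 4.26 to 4.43 on the 12 arrays, with detection p-values of 0.489 to 0.984, so it was not detected on any array. Its close relative Bnip3l was tested, and its differences were 0.09, 0.02, 0.16 and 0.09 in the order genotype on chow, genotype on western diet, diet in WT and diet in SHPKO, each ± 0.10 and none past the test.

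The other genes of the pathway were taken from 8 lists with 117 distinct genes on the array, of which 81 were tested. Over the 5 comparisons, 10 calls fell on 8 of these genes. For genotype on chow 1 of 81 rose and 0 fell (1.23%, against 2.11% of all genes), and on western diet 2 rose and 0 fell (2.47%, against 3.17%). For diet in WT 2 rose and 1 fell (3.7%, against 2.73%), and in SHPKO 3 rose and 0 fell (3.7%, against 3.29%). The interaction called 1 (1.23%, against 2.07%). These shares lie near those of all genes.

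Among other pro-survival genes of the family, 3 of 4 on the array were tested. Bcl2a1b and Bcl2a1d, paralogs that encode A1 proteins and are known from blood cells, rose on western diet in SHPKO, and 0 of 3 fell. Bcl2a1b was at 6.21, 5.76 and 5.79 in SHPKO on chow and at 6.64, 6.87 and 6.93 in SHPKO on western diet, without overlap. It rose by 0.89 ± 0.14 (1.85-fold, limma adjusted p 0.0021). In WT it was at 6.24, 5.95 and 6.25 on chow and at 6.70, 6.81 and 6.46 on western diet, a difference of 0.51 ± 0.14 that did not pass (adjusted p 0.058), and the interaction of 0.38 ± 0.20 had an adjusted p of 0.49. Bcl2a1d rose by 0.92 ± 0.21 in SHPKO (adjusted p 0.02), and its call was lost when any 1 of 4 arrays was left out, with adjusted p-values of 0.063 to 0.095. The paralogs are near-identical, so a probe of one may read the other. The summed lymphocyte level was 733 to 780 in SHPKO on western diet, from markers that passed the filter through that group alone. Of 6 macrophage markers, 0 passed for diet in SHPKO, and 1 rose and 1 fell for diet in WT. The part of these cells in the A1 values was not tested.

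Bcl2l2, which encodes the pro-survival protein BCL-W, had log2 levels of 10.15 to 10.58 on the 12 arrays, and its differences lay between -0.18 and 0.09 with none past the test. Of 13 other pro-death or less defined family genes on the array, 7 were tested and 0 were called in any of the 5 comparisons. Among them, Bok, a relative of the effectors, had -0.45 ± 0.14 for genotype on chow (limma adjusted p 0.14). Bik, a BH3-only gene, had -0.32 ± 0.12 for diet in WT and -0.27 ± 0.12 in SHPKO (adjusted p 0.15 and 0.23). Bmf, another BH3-only gene, had 0.27 ± 0.26 and 0.21 ± 0.26 for genotype on chow and on western diet. Of genes downstream of the mitochondrion, 0 of 15 apoptosome, caspase and mitochondrial genes and 0 of 2 inhibitor of apoptosis genes were called in any of the 5 comparisons. The share of all genes called was 2.07% to 3.29% in these comparisons, so counts of 0 in lists this short say little. The apoptosome and the inhibitor genes are the first and the second list of these. Their median differences lay between -0.05 and 0.03 for the first list, against 0 to 0.02 for all genes.

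**Figure D4:**
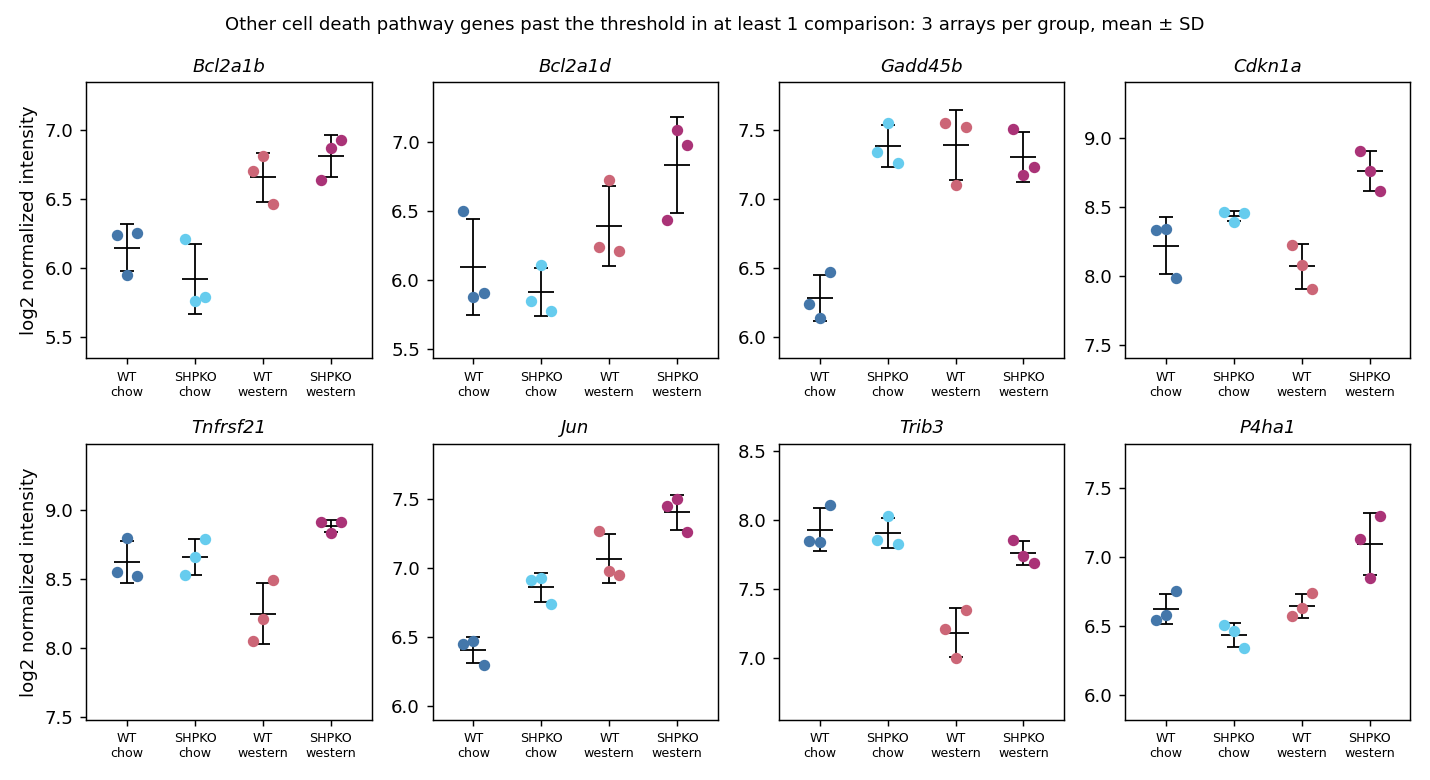
Log2 normalized intensity of the 8 other pathway genes called in at least 1 comparison, by group, with 1 point per array, the mean as a horizontal bar and the SD over 3 arrays as the error bar. Gadd45b is at 6.14 to 6.47 in WT on chow and at 7.10 or above in the other 3 groups, while Trib3 and Cdkn1a have their lowest means in WT on western diet.

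Of 11 tested genes in the list of p53 and its targets, Gadd45b and Cdkn1a were called. Gadd45b encodes a stress-induced protein that acts on p38 and JNK signalling. It was at 6.24, 6.14 and 6.47 in WT on chow, against 7.34, 7.55 and 7.26 in SHPKO on chow, 7.55, 7.10 and 7.52 in WT on western diet, and 7.51, 7.17 and 7.23 in SHPKO on western diet. WT on chow stood below all other arrays, and the other 3 groups overlapped. Gadd45b rose by 1.10 ± 0.14 with genotype on chow (2.14-fold, limma adjusted p 0.00055) and by 1.11 ± 0.14 with diet in WT (2.15-fold, adjusted p 0.00073). The differences were -0.08 ± 0.14 for genotype on western diet and for diet in SHPKO, and the interaction was -1.18 ± 0.20 (adjusted p 0.0063).

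Cdkn1a encodes p21, an inhibitor of cyclin-dependent kinases. It was at 8.22, 8.08 and 7.90 in WT on western diet and at 8.90, 8.76 and 8.61 in SHPKO on western diet, without overlap. It rose by 0.69 ± 0.12 with genotype on that diet (1.62-fold, adjusted p 0.0037). On chow the genotype difference was 0.22 ± 0.12, and the interaction of 0.47 ± 0.17 did not pass (adjusted p 0.24). Bbc3, itself a target of p53, had 0.01 ± 0.13 in the comparison in which Cdkn1a rose. In both genotype contrasts 9 of 9 acinar and 1 of 3 duct markers fell. Of 6 fibroblast and stellate markers, 4 were detected on no array and 2 were tested, of which 1 was called higher in each genotype contrast. Of these 2, 1 was detected on only 6 arrays and on none of WT on chow. The summed level of the 2 on chow was 121 to 205 in WT and 339 to 456 in SHPKO. On western diet it was 171 to 234 in WT and 503 to 565 in SHPKO. There the summed lymphocyte level was 141 to 152 in WT and 733 to 780 in SHPKO. On the same diet 2 of 4 erythroid and 1 of 3 alpha cell markers rose with genotype. For diet in WT, 4 of 4 erythroid, 4 of 9 acinar and 1 of 3 alpha cell markers fell, where 1 erythroid marker had passed the filter through chow alone. Ppy rose by 1.19, and of 6 macrophage markers 1 rose and 1 fell. In the interaction Ppy was lower (-1.08), as was 1 of 9 acinar markers, and 1 of 3 alpha cell markers was higher. The part of these cells in the Gadd45b, Cdkn1a, Tnfrsf21, Jun and Trib3 values was not tested.

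Among 10 tested death receptor genes, Tnfrsf21, which encodes death receptor 6, rose with genotype on western diet by 0.63 ± 0.12 (1.55-fold, adjusted p 0.008). Its levels were 8.05, 8.21 and 8.49 in WT and 8.91, 8.83 and 8.91 in SHPKO on that diet, and without replicate 1 of WT on western diet the difference of 0.53 fell under the minimum fold. Of 21 tested kinases, transcription factors and ubiquitin enzymes that act on the family, Jun rose and Trib3 fell with diet in WT. Jun, a transcription factor activated by JNK, was at 6.45, 6.47 and 6.30 in WT on chow and at 7.27, 6.98 and 6.95 in WT on western diet, a rise of 0.66 ± 0.11 (adjusted p 0.0041) that came to 0.56 without replicate 1 of WT on western diet. In SHPKO the diet difference of Jun was 0.54 ± 0.11 (adjusted p 0.011), under the minimum fold, and the interaction was -0.12 ± 0.16 (adjusted p 0.85).

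Trib3, a stress-induced pseudokinase that binds AKT, was at 7.85, 7.84 and 8.11 in WT on chow and at 7.21, 7.0 and 7.35 in WT on western diet, a fall with a log2 difference of -0.74 ± 0.11 (limma adjusted p 0.0022). In SHPKO the diet difference was -0.15 ± 0.11, and the interaction of 0.60 ± 0.16 had an adjusted p of 0.087. Of 13 tested hypoxia and mitophagy genes, P4ha1, a subunit of collagen prolyl hydroxylase, rose with diet in SHPKO, by 0.66 ± 0.12 (adjusted p 0.0039). It was at 6.51, 6.46 and 6.34 in SHPKO on chow and at 7.13, 6.85 and 7.30 in SHPKO on western diet. The mean of its kept probes gave 0.23 with an adjusted p of 0.26, so its probes disagreed, and without replicate 3 of SHPKO on western diet the difference of 0.55 fell under the minimum fold.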

How the data were processed

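RNA of pooled mouse islets was measured on 12 arrays in 4 groups of 3. The deposited table, from BeadStudio (version not stated, per the submitters' processing notes), holds a linear intensity per probe and array that was not normalized. The authors also deposited a detection p-value for each intensity, set against the negative controls of the array. A second deposited intensity table, background-subtracted and normalized by the authors as its values show, served as an alternative. Neither slides nor a build are given in the sources used here, and slide effects were not tested.

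The function neqc of limma 3.58.1 in R 4.3.3, with an offset of 16, corrected the background, quantile-normalized and took log2. A probe with detection p below 0.01 on all 3 arrays of a group was kept, which left 14756 probes, and the brightest kept probe stood for its gene. Probes were named from the platform annotation: 34885 had 1 gene, 18 had several and 10378 were not listed. A model of 4 group means was fitted to 8875 genes (total degrees of freedom 12.4), with Benjamini-Hochberg adjustment within each contrast, and was tested on simulated data. A call needed both an adjusted p below 0.05 and 1.5-fold. Folds are on the offset scale, which understates the change of dim genes. The number of arrays limits the precision.

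The rule names all 10 members, up to 3 called genes per direction and comparison of each pathway list, Nr0b2, and up to 3 markers per cell type. It also names the genes most like a called member, of which there was none. Bcl2l2, Bok, Bik, Bmf and Bnip3l were named outside it, after their values were seen. Members, lists and tests were chosen with earlier results of these data known. Alternatives were other background correction, normalization, filters, probe summaries, thresholds, samples and source values, the replicate number as a block, and leaving out each array.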

Additional observations from a re-analysis of the deposited data

Results flagged for a closer look

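The genotype by diet interaction of Gadd45b was -1.18 ± 0.20 on the log2 scale (limma adjusted p 0.0063), a difference of effects that was itself tested: the genotype difference was 1.10 on chow and -0.08 on western diet. It was called in the other settings run too, over a range of -1.33 to -0.77. Bcl2 was among the genes not tested, and its only detections were those of probe ILMN_1249021 on 2 arrays of SHPKO on western diet, against 0 of 3 arrays of WT on chow, the control group.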

How the results depend on the processing

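The count of called members was unchanged in 151 of 153 combinations of comparison and setting. With no minimum fold it was 1 for diet in SHPKO (Bcl2l1) and 2 for diet averaged over genotypes (Bcl2l1 and Mcl1). With the replicate number as a block, 0 members were called in every comparison, and 233, 292, 270, 323 and 238 genes were called for genotype on chow, genotype on western diet, diet in WT, diet in SHPKO and the interaction, against 187, 281, 242, 292 and 184. The adjusted p of Bid for diet in SHPKO was 0.27 with the block and 0.44 without it. The deviations of same-numbered arrays from their group means correlated at -0.035 to 0.539, above 0.1 in 11 of 18 pairs, and 10 of 12 arrays correlated best with their own number. This is a hint of a shared effect from the data, not the design. No label ties a number to a pool or slide, so the numbers were not taken to pair arrays in the main fit. Of 869 member values under other settings, 55 changed sign, 43 of them on leaving out 1 array. None of these values had been called, and the cause was not tested.

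Median scaling in place of quantile normalization moved the median of all genes to 0.16 for genotype on chow, 0.14 on western diet and 0.15 averaged over diets. It gave 195 higher and 80 lower genes for genotype on chow, against 80 and 107, and 277 and 84 on western diet, against 173 and 108. Averaged over diets it gave 168 and 68, against 82 and 78. Under it, genotype on chow gave 0.02 for Bad, 0.16 for Bbc3, 0.14 for Bcl2l11 and 0.14 for Bid, and Bad thus stayed below the shifted median of 0.16. Diet in WT gave 0.02 for Bad and 0.06 for Bbc3, the interaction -0.01 for Bbc3, and genotype averaged 0.10 for Bad, 0.15 for Bbc3 and 0.14 for Bcl2l1. Bbc3 for diet averaged was 0 with no background correction, and Bcl2l11 for genotype averaged was -0.10 with the mean of the kept probes.

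Leaving out 1 array gave ranges that crossed 0 for Bbc3: -0.17 to 0.10 for genotype on chow, -0.02 to 0.06 on western diet, -0.07 to 0.06 for diet in WT, -0.11 to 0.17 for diet in SHPKO, -0.09 to 0.18 for the interaction, -0.06 to 0.07 for diet averaged and -0.08 to 0.05 for genotype averaged. For Bid they were -0.26 to 0.12 for genotype on chow, -0.01 to 0.31 on western diet, -0.08 to 0.30 for diet in WT and -0.05 to 0.14 for genotype averaged. They were -0.07 to 0.03 for the interaction of Mcl1, 0 to 0.07 for diet averaged of Bad and -0.08 to 0.02 for genotype averaged of Bcl2l1.

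In the order of the 5 comparisons, the count of all called genes was 97, 126, 86, 127 and 127 with no background correction. It was 105, 137, 160, 139 and 80 for genes detected on all 12 arrays, 381, 431, 480, 533 and 308 for single probes, and 250, 441, 515, 513 and 190 with no minimum fold. With no background correction, Cdkn1a, Tnfrsf21, Jun, Trib3, Bcl2a1b, Bcl2a1d and P4ha1 fell under the minimum fold, at adjusted p-values of 0.00096 to 0.013, and Mcl1 for diet in WT had an adjusted p of 0.046. Signal near background limits Bcl2, Bak1, Bnip3 and Bid.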
